A study of Mus musculus with 4 samples.

Results

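The HOX genes are the homeobox transcription factors of the 4 HOX clusters. They were taken as every gene symbol in the deposited feature tables that starts with Hoxa, Hoxb, Hoxc or Hoxd and ends in a number. This gave 39 genes of 32285 counted, 11 in cluster A, 10 in cluster B, 9 in cluster C and 9 in cluster D. Their unique molecular identifiers (UMIs, each standing for 1 captured RNA molecule) were followed across the graft, which is the injected cancer cell line, and the host cells around it. The material was tumours of Pan02, a mouse pancreatic cancer line, grown under the skin of the right flank of female C57BL/6 mice aged 6 to 7 weeks after injection of 5000000 cells. All groups were formed when tumours had reached about 50 mm3. The control library was labelled IgG, the others anti-PD-1, anti-LIF and the combination of both antibodies (combo), where PD-1 is an inhibitory receptor of T cells and LIF a cytokine of the interleukin-6 family. The protocol names 200 µg of anti-PD-1 with 25 mg/kg of IgG or of anti-LIF antibody 3 times weekly, and does not spell out the doses group by group. Each group is 1 library in which 3 samples were combined, so the mice within a library cannot be told apart, and all cancer cells derive from 1 line.

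HOX proteins bind DNA through the homeodomain and set the identity of body segments in the embryo. Genes at the anterior end of a cluster (low numbers, groups 1 to 4) are used toward the head, and genes at the posterior end (groups 9 to 13) toward the tail and the limb tips. Fibroblasts, endothelial cells and muscle cells of the adult keep part of the HOX pattern of the place where they arose. The pancreas forms from the foregut, whereas flank skin belongs to the trunk. HOX proteins act with PBX and MEIS cofactors, and Polycomb and MLL complexes keep the clusters silent or active.

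In GRCm38 coordinates (the mm10 build of the files, GENCODE M21 annotation), cluster A lies at chr6:52155590-52260880, cluster B at chr11:96194316-96368256, cluster C at chr15:102921103-103036852 and cluster D at chr2:74668310-74765142. The members most used below are protein-coding genes: Hoxa5 at chr6:52201754-52204587 and Hoxa9 at chr6:52223100-52231089 (both minus strand), Hoxc8 at chr15:102990607-102994111, Hoxc9 at chr15:102976439-102985099 and Hoxd8 at chr2:74704615-74707933 (plus strand).

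The homeobox, the coding stretch of 180 bases that gives the homeodomain, is shown for 5 members whose levels differ between classes of cells. The capitals mark the codons of the core of the third helix, which lies in the major groove of DNA.
Hoxa5: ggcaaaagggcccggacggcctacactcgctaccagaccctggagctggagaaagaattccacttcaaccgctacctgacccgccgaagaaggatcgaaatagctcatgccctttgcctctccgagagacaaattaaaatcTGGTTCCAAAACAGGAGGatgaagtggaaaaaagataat
Hoxa10: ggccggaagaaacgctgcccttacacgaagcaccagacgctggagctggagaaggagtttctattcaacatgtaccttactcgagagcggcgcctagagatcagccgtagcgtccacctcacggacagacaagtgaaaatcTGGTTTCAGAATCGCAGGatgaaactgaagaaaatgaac
Hoxc9: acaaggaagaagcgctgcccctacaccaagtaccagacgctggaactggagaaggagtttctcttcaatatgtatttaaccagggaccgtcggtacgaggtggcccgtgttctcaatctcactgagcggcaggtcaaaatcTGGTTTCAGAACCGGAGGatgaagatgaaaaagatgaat
Hoxc8: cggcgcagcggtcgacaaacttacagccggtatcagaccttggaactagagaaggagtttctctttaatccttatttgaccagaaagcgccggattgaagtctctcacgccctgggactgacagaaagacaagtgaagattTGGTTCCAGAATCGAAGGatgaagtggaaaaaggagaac
Hoxd8: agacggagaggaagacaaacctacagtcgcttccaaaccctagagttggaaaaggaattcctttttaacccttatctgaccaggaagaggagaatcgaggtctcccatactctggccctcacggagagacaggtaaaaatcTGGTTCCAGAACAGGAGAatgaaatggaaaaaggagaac
Over the 741 pairs of the 39 homeoboxes, the share of identical bases ran from 46.11% to 93.89% with a median of 61.11%. Hoxc8 and Hoxd8, which belong to the same paralogue group, shared 73.33% of bases, and the neighbours Hoxc8 and Hoxc9 shared 64.44%. Hoxa10 and Hoxc9 shared 74.44%, and Hoxa5 and Hoxa10 61.67%. No pair had more than 52 identical bases in a row.

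The promoters of Hoxa5 and Hoxd8, the leading genes of the cancer cells and of the endothelial cells, are shown as the 250 bases before the start of the gene, with CG dinucleotides in capitals (RefSeq, GRCm38.p6).
Hoxa5, chr6:52204588-52204837, minus strand: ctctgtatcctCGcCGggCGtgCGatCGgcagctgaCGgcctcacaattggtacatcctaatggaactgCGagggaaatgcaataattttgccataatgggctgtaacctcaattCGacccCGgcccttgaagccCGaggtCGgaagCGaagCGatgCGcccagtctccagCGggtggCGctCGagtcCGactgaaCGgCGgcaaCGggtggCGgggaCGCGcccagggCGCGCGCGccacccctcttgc
Hoxd8, chr2:74704365-74704614, plus strand: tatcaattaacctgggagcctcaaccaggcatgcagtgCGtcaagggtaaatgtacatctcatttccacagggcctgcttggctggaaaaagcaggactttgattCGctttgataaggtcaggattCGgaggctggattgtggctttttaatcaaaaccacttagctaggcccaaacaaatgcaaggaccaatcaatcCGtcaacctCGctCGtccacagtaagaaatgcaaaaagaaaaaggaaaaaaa
The Hoxa5 window holds 28 CG dinucleotides, as many or more than which were found in 7.607% of the 32851 promoters of the table. The Hoxd8 window holds 6, the median of all promoters, whereas the median over 24 HOX promoters (22 genes) was 12.5. The motif TGATTNAT, read on both strands as a form of the site bound jointly by PBX and HOX proteins, was found in 2 of the 24 HOX promoters (Hoxa2 and Hoxd11) and in 2.825% of all promoters of the same length, and in neither of the windows shown.

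The libraries held 15046 to 20393 cell barcodes and 57720774 to 111164731 UMIs, and 14014 to 18640 barcodes were kept (at least 200 genes, at most 20% mitochondrial UMIs). Pairs of libraries shared 277 to 392 barcodes, at most 2.2711% of the smaller one. Cells entered a class by marker UMIs (at least 2 different markers of the class and 3 marker UMIs, more than for any other class, and under 2 different markers of each other class). Cancer cells needed keratin or mesothelin UMIs and no UMI of Xist, the RNA of the inactive X chromosome, so Xist in them is not a finding. The classes held 6429 cancer cells, 6583 fibroblasts, 1864 endothelial cells, 173 muscle cells, 288 gland cells (273 of them salivary, all in the combo library) and 42 pericytes. T cells and macrophages were read beside them.

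Marker levels of the classes are a description, because the gate chose cells by marker UMIs and so fixed part of these levels in advance. They do not test the labels, and 1 class departed from its label. Krt18 stood at 979 to 1494 CPM (UMIs of the gene per 1000000 UMIs of the class) in cancer cells and at 17.8 to 36.6 CPM in fibroblasts. Dcn, a fibroblast proteoglycan, stood at 2903 to 5345 CPM in fibroblasts and 39.6 to 85.9 CPM in cancer cells, and Pecam1 at 2185 to 2490 CPM in endothelial cells and at most 3.8 CPM in those 2 classes. The fibroblast gate, however, held cancer-like cells in the control and anti-PD-1 libraries. In fibroblasts of the 4 libraries in the order given, Xist was 57.3, 83.8, 143 and 171 CPM, whereas the pancreatic progenitor factor Sox9 was 889, 478, 80.8 and 90.1 CPM and Pdx1, which marks pancreas, 6.90, 3.38, 0.23 and 0.34 CPM. Results on fibroblasts are therefore also given for the 267, 239, 694 and 717 fibroblasts with at least 1 Xist UMI, a set chosen after these levels had been seen. It favours deeply sequenced cells (median 4730 to 6385 UMIs per cell, against 1933 to 4321 in all gated fibroblasts).

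HOX genes were read in the graft and in every class of host cells, and cancer cells, fibroblasts and endothelial cells drew on different clusters. The 6 classes together held 22430 HOX UMIs. In all, 26 members reached 50 UMIs, 8 had 1 to 48 (Hoxd3, with 48, was the highest of these), and Hoxb13, Hoxc11, Hoxc12, Hoxc13 and Hoxd12 had none. Thus the most posterior members were at or near 0 throughout: Hoxa13 and Hoxd13 had 2 UMIs each. Levels of different genes are compared as CPM, which in 3′ libraries counts 1 end per molecule and needs no correction for gene length.

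**Figure D1:**
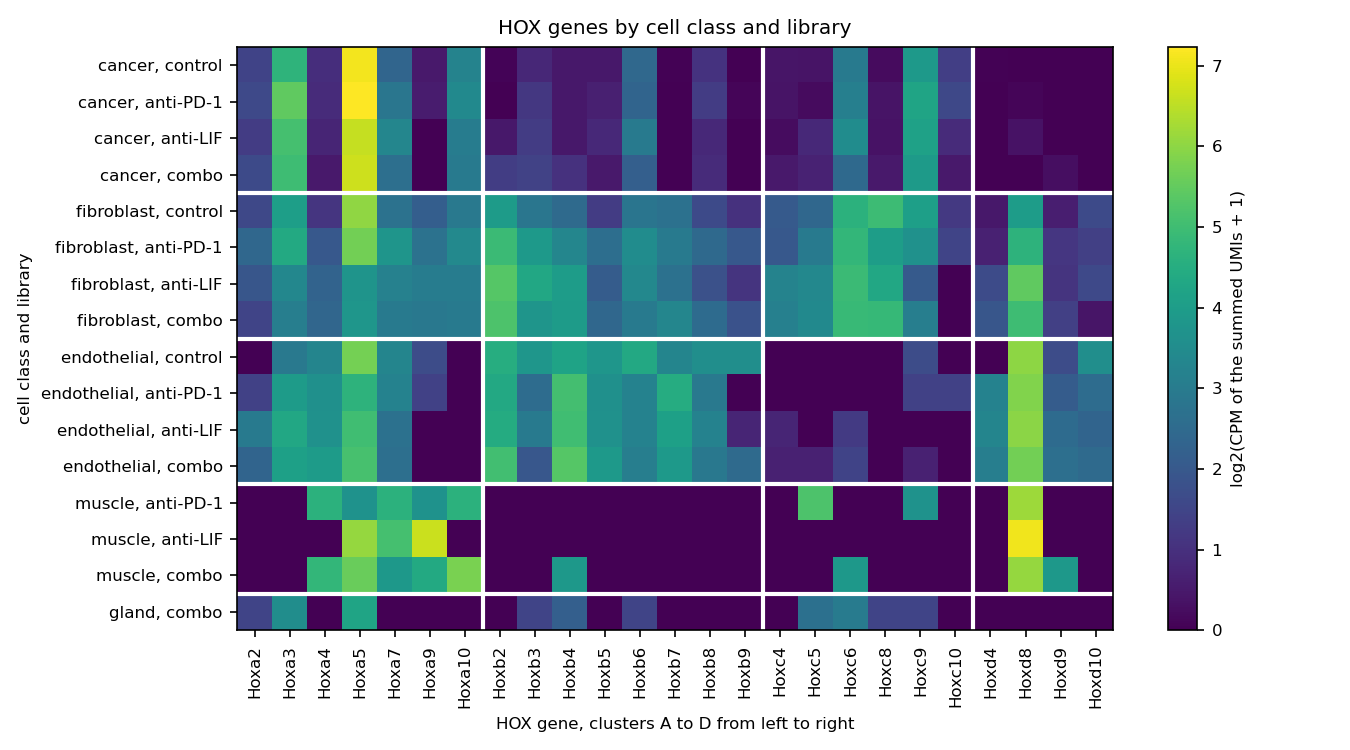
CPM of 25 of the 26 HOX genes with at least 50 UMIs (columns, ordered along each cluster), as log2(CPM + 1), in each class and library (rows). The Hoxa5 column is brightest in cancer cells, and the cluster D columns are at or near 0 there and filled in fibroblasts and endothelial cells.

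In cancer cells the summed HOX level was 212, 253, 194.5 and 181 CPM (control, anti-PD-1, anti-LIF, combo), in fibroblasts 241, 286, 269 and 259 CPM, and in endothelial cells 277, 248, 265 and 267 CPM. Within each of the 4 libraries the cancer cells stood below the fibroblasts, a mean difference of -53.4 ± 26.2 CPM (SD, n = 4; exact paired permutation test, two-sided p = 0.125, the smallest that 4 pairs can give). Across libraries the ranges overlap. T cells stood at 13.1 to 25.4 CPM and macrophages at 13.8 to 30.1 CPM.

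Cluster A gave 85.67%, 85.77%, 79.42% and 83.28% of the HOX UMIs of cancer cells, and cluster D 0.01409% to 0.2307%. Endothelial cells drew mainly on clusters B (39.23% to 45.22%), A (25.83% to 29.49%) and D (25.65% to 30.51%), and only 0.7692% to 1.325% came from cluster C. Fibroblasts used all 4: in the combo library 18.76% came from A, 35.28% from B, 31.39% from C and 14.57% from D. Their cluster A share was 42.25% and 38.05% in the control and anti-PD-1 libraries and 19.49% in the anti-LIF library, but 18.54%, 23.12%, 18.21% and 19.34% in the fibroblasts with a Xist UMI. The shares are a description, with 867 to 7097 HOX UMIs a library in cancer cells, 1435 to 2376 in fibroblasts and 127 to 460 in endothelial cells.

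**Figure D2:**
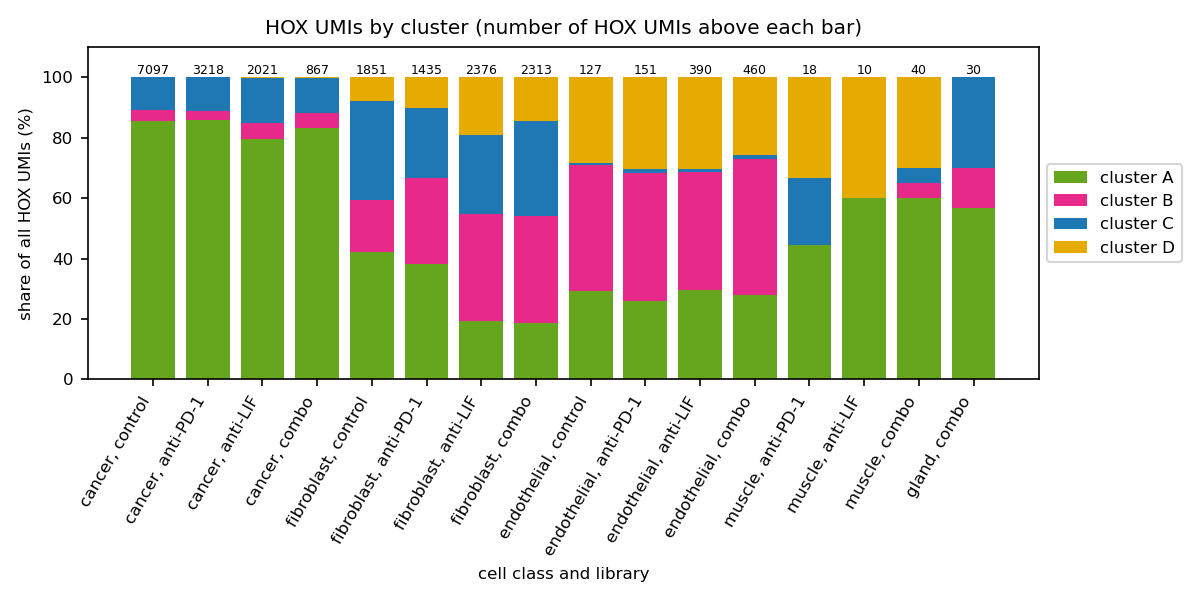
Percent of HOX UMIs from clusters A, B, C and D (stacked bars, 0 to 100%) by class and library, with the number of HOX UMIs above each bar. Cluster A fills 79.42% to 85.77% of the cancer cell bars, and cluster C at most 1.325% of the endothelial bars.

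Cancer cells were called different from fibroblasts in most members that passed the filter on low counts. They were higher in Hoxa5 and Hoxa3 and lower in 19 others, among them every tested member of clusters B and D. Class sums per library were compared with edgeR's quasi-likelihood test, with the library as a term and Benjamini-Hochberg adjustment over 13005 genes. The 4 libraries are the replicates and differ in treatment. With the library as a term, p-values rest on how class levels vary between these libraries beyond a shift shared by a whole library. That spread was estimated over all 6 classes. Of the 39 members, 24 passed the filter on low counts. Of these, 2 were higher (background 26.0% of all genes tested) and 19 lower (background 30.0%). The filter needs a minimum level in as few as 1 class sum, so members also passed through host classes. Hoxc10 did not pass, with 1.435 CPM (88 UMIs) in cancer cells and 0.62 CPM (19 UMIs) in fibroblasts. The counts therefore describe the members that passed. Without the filter 4 members were higher. The median log2 difference over those 24 was -3.78, against -0.02 over all genes, and 22 had an unadjusted p under 0.05.

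Hoxa5, a patterning gene of the neck, lung and upper trunk, was the leading member of the graft. In cancer cells it stood at 138, 149.5, 96.7 and 102 CPM (4610, 1902, 1005 and 486 UMIs), and in fibroblasts at 65.1, 50.4, 12.5 and 12.9 CPM. Every library had more in its cancer cells than in its fibroblasts, and the lowest cancer cell value lies above the highest fibroblast value. The log2 difference was 1.82 ± 0.28 (SE; edgeR quasi-likelihood adjusted p = 1.99e-05), and 2.68 against the fibroblasts with a Xist UMI, in which Hoxa5 was 22.5, 20.3, 11.2 and 11.6 CPM. Of the 500 Hoxa5 UMIs of control fibroblasts, 43 were in cells with a Xist UMI.

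The share of cancer cells with a Hoxa5 UMI was 55.37%, 50.87%, 38.26% and 29.8%, in cells with a median depth of 9980.5, 6338, 4584 and 2777 UMIs. After each cell had been thinned to 1000 UMIs, which left out 152, 92, 149 and 139 shallower cells, the shares were 12.71%, 12.24%, 8.63% and 9.571%. The corresponding shares in T cells, read as a reference for RNA from other cells, were 0.4503%, 0.534%, 0.3442% and 0.1247% after thinning, at median depths of 1212 to 1608 UMIs before it.

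Hoxa3, which shapes the thymus and the throat, was 25.3, 43.5, 33.3 and 30.9 CPM in cancer cells against 15.5, 20.1, 9.18 and 7.60 CPM in fibroblasts. Its log2 difference was 1.16 ± 0.21 (edgeR quasi-likelihood adjusted p = 0.0002521), with no overlap between the classes. The annotated Hoxa3 gene spans Hoxa4, Hoxa5 and Hoxa6 on the same strand, and how reads were split between them is not given in the sources used here. The value of Hoxa3 is therefore uncertain, and those of Hoxa4, Hoxa5 and Hoxa6 may be affected as well.

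The neighbours of Hoxa5 in cluster A stood lower. Over all cancer cells Hoxa2 stood at 1.79, Hoxa4 at 0.83, Hoxa7 at 5.46, Hoxa9 at 0.33 and Hoxa10 at 8.40 CPM, so that Hoxa9 was low between neighbours with more UMIs. Hoxa9, a posterior gene known from haematopoiesis and leukaemia, had 14, 6, 0 and 0 UMIs in the cancer cells of the 4 libraries against 3.52, 5.57, 7.14 and 6.37 CPM (27, 28, 63 and 57 UMIs) in fibroblasts. It was lower by 4.27 ± 0.55 on the log2 scale (edgeR quasi-likelihood adjusted p = 3.307e-06), and lower by more without the control library (log2 difference -5.03).

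Hoxa10, the next posterior gene, was 8.41, 9.91, 7.22 and 6.90 CPM in cancer cells and 6.64, 9.56, 7.25 and 6.82 CPM in fibroblasts. These values overlap, and the log2 difference of -0.11 ± 0.26 did not pass (edgeR quasi-likelihood adjusted p = 0.7551), which does not show equal levels. Hoxa2 did not pass either (-0.71 ± 0.39, adjusted p = 0.1281), while Hoxa4 was lower by 1.99. Hoxa7 was lower by 0.64 ± 0.23 (edgeR quasi-likelihood adjusted p = 0.02335), but not without the anti-PD-1 library (-0.45, adjusted p = 0.2055) or the combo library (-0.63, adjusted p = 0.08279).

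**Figure D3:**
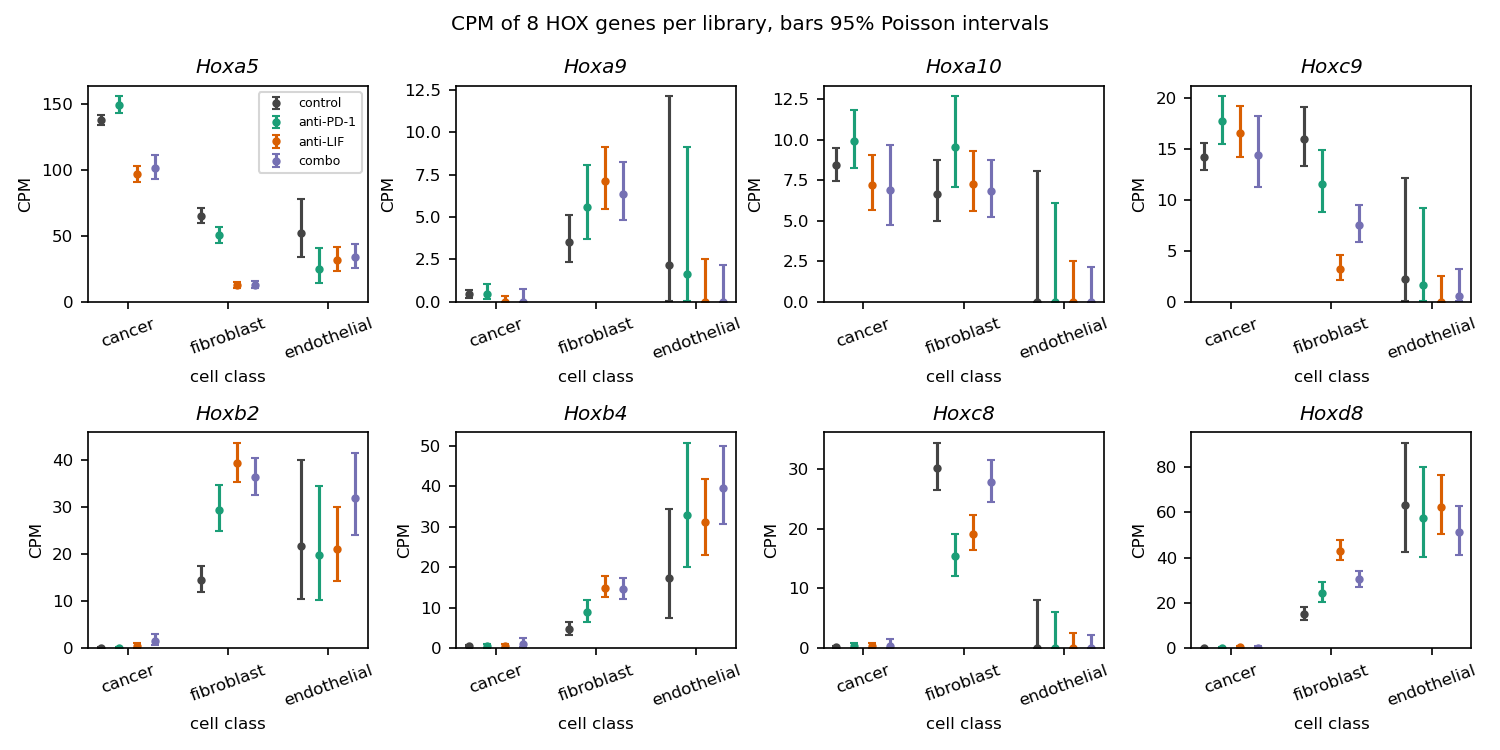
CPM of Hoxa5, Hoxa9, Hoxa10, Hoxc9, Hoxb2, Hoxb4, Hoxc8 and Hoxd8 in cancer cells, fibroblasts and endothelial cells of each library, with 95% Poisson intervals. Hoxa5 is highest in cancer cells (96.7 to 149.5 CPM), Hoxd8 in endothelial cells (51.1 to 63.2 CPM), and Hoxc8 in fibroblasts (15.3 to 30.2 CPM).

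Cluster C was split in cancer cells. Hoxc9, a trunk gene, was 14.2, 17.7, 16.6 and 14.4 CPM in cancer cells and 16.0, 11.6, 3.17 and 7.49 CPM in fibroblasts. Control is the library in which cancer cells were not higher. The log2 difference was 0.65 ± 0.28 (edgeR quasi-likelihood adjusted p = 0.06172), 0.98 without the control library (adjusted p = 0.004359) and 1.32 against the fibroblasts with a Xist UMI (adjusted p = 0.0001986). Hoxc9 was also called without the filter on low counts, with the gate by marker UMI multiple and at 10% mitochondrial UMIs.

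Its neighbour Hoxc8, which patterns the ribs and the brachial spinal cord, had 5, 4, 3 and 2 UMIs in cancer cells against 30.2, 15.3, 19.2 and 27.7 CPM in fibroblasts (232, 77, 169 and 248 UMIs). Every fibroblast library lay above every cancer cell library, and the log2 difference was -6.65 ± 0.38 (edgeR quasi-likelihood adjusted p = 2.935e-09), or -6.02 without the control library. Hoxc6 was 6.67, 7.78, 10.4 and 4.60 CPM against 23.96, 26.9, 29.7 and 28.3 CPM, lower by 2.09 ± 0.21. Hoxc5 and Hoxc4 were lower by 4.20 and 4.01. The Hoxc5 gene model overlaps Hoxc6, Hoxc8, Hoxc9 and Hoxc10 on the same strand, so its counts are uncertain. Counts of these overlapped neighbours may be affected as well, since how shared reads were counted is not given.

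In cluster B all 8 tested members were lower in cancer cells. Hoxb2, a gene of the hindbrain and neck, had 2, 0, 4 and 7 UMIs in cancer cells and 14.6, 29.5, 39.3 and 36.3 CPM in fibroblasts, a log2 difference of -6.81 ± 0.42 (edgeR quasi-likelihood adjusted p = 4.196e-10; -7.72 without the combo library). Hoxb7 had 1 UMI among 61327506 UMIs of cancer cells and 204 UMIs in fibroblasts, a CPM ratio of 0.00244 (95% counting interval 6.14e-05 to 0.0137; edgeR quasi-likelihood adjusted p = 1.922e-09). Hoxb9, with 1 UMI against 56, had a ratio of 0.00887 (0.000221 to 0.0515).

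Hoxb4, known for its part in blood stem cells, had 13, 5, 4 and 5 UMIs in cancer cells and was lower by 4.39 ± 0.32. The members with least difference were Hoxb3 (-3.55), Hoxb5 (-2.75), Hoxb8 (-1.85) and Hoxb6 (-1.002). Hoxb6 stood at 4.46, 4.01, 6.93 and 3.56 CPM in cancer cells and 5.99, 10.4, 9.29 and 6.93 CPM in fibroblasts, ranges that overlap across libraries. Its call was lost without the anti-PD-1 library (-0.83, edgeR quasi-likelihood adjusted p = 0.06403).

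Cluster D was at or near 0 in the graft. Hoxd8, a gene of the trunk, had 0, 1, 3 and 0 UMIs in cancer cells against 14.97, 24.5, 43.1 and 30.4 CPM (115, 123, 380 and 272 UMIs) in fibroblasts. The log2 difference was -8.28 ± 0.39 (edgeR quasi-likelihood adjusted p = 1.729e-12), or -9.08 without the anti-LIF library. Hoxd4 (1 UMI against 50) had a CPM ratio of 0.00994 (95% counting interval 0.000247 to 0.058) and Hoxd9 (1 against 34) of 0.0146 (0.00036 to 0.0871), and both were called lower. Hoxd10 had 0 UMIs in cancer cells and 45 in fibroblasts, at least 30.19-fold lower when 3 UMIs are allowed over all cancer cells.

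Against the fibroblasts with a Xist UMI, 3 members were higher in cancer cells (Hoxa5, Hoxa3 by 2.02 and Hoxc9; background 29.2%) and 19 lower (background 30.2%). With cells thinned to 1000 UMIs, 16 members passed the filter on low counts and 11 of them were called lower (background 25.7%). Of the members called in all reads, 7 were not tested there.

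**Figure D4:**
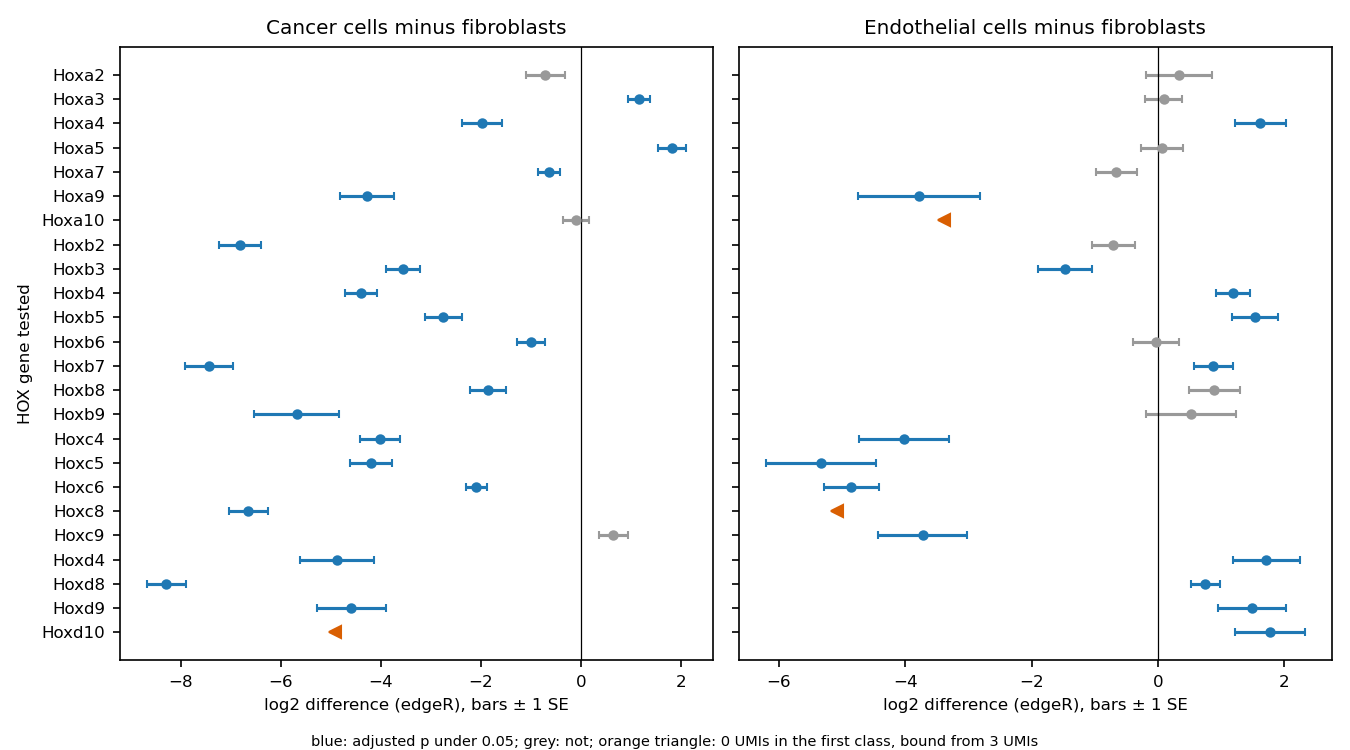
Log2 differences (± SE derived from the edgeR F statistic) of the 24 tested HOX genes, cancer cells minus fibroblasts and endothelial cells minus fibroblasts. Triangles are bounds for genes with 0 UMIs in a class. Hoxa5 (1.82) and Hoxa3 (1.16) lie to the right in cancer cells, and members of cluster C with a call lie to the left in both comparisons.

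Endothelial cells had almost nothing of cluster C, and more of several cluster B and D members than all gated fibroblasts. Against the fibroblasts with a Xist UMI, only Hoxb4, Hoxb5 and Hoxd8 of clusters B and D were called higher. Hoxa3, Hoxa4 and Hoxa5 of cluster A were called higher there as well. Against all gated fibroblasts, 8 of 24 members tested were higher (background 19.3%) and 8 lower (background 22.6%) by edgeR's quasi-likelihood test. The median log2 difference was 0.08 against -0.04 over all genes. Among the 8 higher, Hoxb5, Hoxd4 and Hoxd10 passed the filter on low counts through endothelial sums only. Hoxd10 did so through the control library alone, at 10.9 CPM (5 UMIs). These counts are therefore a description. Hoxd8 led, at 63.2, 57.5, 62.5 and 51.1 CPM (29, 35, 92 and 88 UMIs), with every library above its fibroblasts (0.75 ± 0.23, adjusted p = 0.01378). That call was lost without the control library (0.44, adjusted p = 0.07047) without the anti-PD-1 library (0.70, adjusted p = 0.09549) and without the library term (0.74, adjusted p = 0.06404), and it held against the fibroblasts with a Xist UMI (0.46, adjusted p = 0.04374).

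Hoxb4 stood at 17.4, 32.9, 31.3 and 39.5 CPM in endothelial cells against 4.69, 8.96, 14.96 and 14.6 CPM in fibroblasts, higher by 1.19 ± 0.27 (edgeR quasi-likelihood adjusted p = 0.001505). Hoxb5, which has a known part in vascular development, was 13.1, 11.5, 11.6 and 13.9 CPM against 1.43, 5.18, 3.29 and 4.36 CPM, higher by 1.53 ± 0.36 (adjusted p = 0.002539). Hoxa4 was higher by 1.62 ± 0.40 (adjusted p = 0.003232). For these 3 genes the classes did not overlap, and the calls held when any 1 library was left out and against the fibroblasts with a Xist UMI. With cells thinned to 1000 UMIs Hoxa4 and Hoxb5 were not called.

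The calls of Hoxd10 (1.78), Hoxd4 (1.72), Hoxd9 (1.49) and Hoxb7 (0.88) rested on 19 to 65 endothelial UMIs, and DESeq2 called none of these 4. Without the control library Hoxd9 was lost (1.41) and Hoxd10 did not pass the filter on low counts, without the anti-PD-1 library Hoxd9 (1.55), Hoxd4 (1.34) and Hoxb7 (0.71), without the anti-LIF library Hoxd9 (1.33), Hoxd4 (1.69) and Hoxb7 (0.70), and without the combo library Hoxd9 (1.59) and Hoxd10 (1.34). At 10% mitochondrial UMIs Hoxd10, Hoxd9 and Hoxb7 were not called. Against the fibroblasts with a Xist UMI, Hoxd10 (1.40), Hoxd9 (1.22), Hoxd4 (1.26) and Hoxb7 (0.55) were not called. There, 6 members were higher (background 20.9%) and 9 lower (background 25.0%), since Hoxa5 (0.86) and Hoxa3 (0.83) were called higher and Hoxb2 (-1.07) lower.

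Cluster C was low in the endothelial cells of every library. Hoxc8 had 0 UMIs, which makes it at least 33.83-fold lower than in fibroblasts (3 UMIs allowed over 4260001). Hoxc6 had 0, 0, 2 and 3 UMIs and was lower by 4.85 ± 0.43 (edgeR quasi-likelihood adjusted p = 2.129e-08), or 5.46 without the combo library. The other 3 tested members were called lower as well, with CPM ratios of 0.0301 for Hoxc5 (1 UMI, 95% counting interval 0.000758 to 0.169), 0.0773 for Hoxc4 (2 UMIs, 0.0093 to 0.283) and 0.0778 for Hoxc9 (3 UMIs, 0.0159 to 0.23).

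Posterior members of cluster A were low in endothelial cells as well. Hoxa10 had 0 UMIs, at least 10.44-fold lower than in fibroblasts. Hoxa9 had 1, 1, 0 and 0 UMIs, a CPM ratio to fibroblasts of 0.0818 (95% counting interval 0.00982 to 0.3; edgeR quasi-likelihood adjusted p = 0.003924). Without the combo library it was not called (adjusted p = 0.05614). Hoxb3 was lower by 1.47, and this call held without the control library but not without the anti-PD-1 (-1.41), anti-LIF (-1.31) or combo library (-1.10).

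Hoxa5 in endothelial cells was 52.3, 24.7, 31.3 and 33.7 CPM (24, 15, 46 and 58 UMIs), within the range of all gated fibroblasts (0.06 ± 0.33, edgeR quasi-likelihood adjusted p = 0.9086). Hoxb2 was 21.8, 19.7, 21.1 and 31.9 CPM, and its difference of -0.70 ± 0.33 did not pass (adjusted p = 0.1039). It passed without the control library (-0.91, adjusted p = 0.01437), against the fibroblasts with a Xist UMI, without the filter on low counts (-0.71, adjusted p = 0.01511), at 10% mitochondrial UMIs (-0.94), after thinning (-1.08), under the stricter gate (-0.77) and by number of markers (-0.76).

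Compared directly, cancer cells and endothelial cells differed in 18 of 24 members: 5 were higher in cancer cells (background 27.7%) and 13 lower (background 27.9%). The limit of the filter holds here too, since Hoxb5, Hoxd4 and Hoxd10 passed it through endothelial sums only. Higher in cancer cells were Hoxa5 (1.76 ± 0.31), Hoxa3 (1.07 ± 0.28), Hoxc6 (2.76 ± 0.52, or 3.54 without the combo library), Hoxc9 (CPM ratio 21.8, 95% counting interval 7.43 to 106) and Hoxa10, at least 11.92-fold. Cancer cells thus held Hoxa10 with 515 UMIs and Hoxc9 with 941 where endothelial cells had 0 and 3. Lower were the 4 tested members of cluster D, the 8 of cluster B and Hoxa4 (-3.61 ± 0.46). Hoxd8 differed by -9.04 ± 0.41 (edgeR quasi-likelihood adjusted p = 1.545e-12), with -8.24 without the control library and -10.06 without the anti-LIF library. Hoxb6 (-0.97, adjusted p = 0.03676) was not called without the control, anti-PD-1 or combo library.

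Hoxb4 was also read outside the stroma. T cells held 2.89, 3.88, 15.8 and 11.3 CPM (35, 7, 23 and 22 UMIs) and macrophages 2.87, 6.12, 5.19 and 4.80 CPM. These values lie above the 0.39, 0.39, 0.38 and 1.05 CPM of cancer cells in each library. The part of RNA from other cells in them was not tested.

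Muscle cells carried 68 HOX UMIs in the 3 libraries with at least 10 such cells (56, 22 and 92 cells in the anti-PD-1, anti-LIF and combo libraries). Acta1, the skeletal muscle actin, stood at 20720 to 32310 CPM there. Hoxd8 gave 6, 4 and 10 UMIs, Hoxa10 2, 0 and 8, Hoxa5 1, 2 and 7 and Hoxa9 1, 3 and 3, and cluster B reached 2 UMIs, both of Hoxb4 in the combo library. Against fibroblasts, edgeR's quasi-likelihood test called 1 member higher (background 10.7%) and 5 lower (background 24.7%). Hoxa10 was higher by 1.72 (adjusted p = 0.03936), a call lost without the anti-PD-1 library (2.05, adjusted p = 0.06392) or the combo library (0.36, adjusted p = 0.8273).

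Called lower in muscle cells were Hoxb2, Hoxc8, Hoxb3 and Hoxa3, each at 0 UMIs, and Hoxc6 (2 UMIs, CPM ratio 0.278, 95% counting interval 0.0336 to 1.01). With 3 UMIs allowed over the 3 muscle libraries, Hoxb2 was at least 2.682-fold and Hoxc8 at least 2.089-fold below fibroblasts of all 4 libraries. At 0 UMIs the 95% Poisson interval reached 14.0 CPM in muscle cells. Fibroblasts had 12.1 CPM of Hoxa3 and 13.1 CPM of Hoxb3, so the counts alone do not place these 2 lower in muscle cells. Hoxc6, Hoxa3 and Hoxb3 were not called without the anti-PD-1 or the anti-LIF library, and without the combo library only Hoxc6 was called. Hoxd8 in muscle, at 76.0 CPM over the 3 libraries, did not pass against fibroblasts (0.83 ± 0.46, adjusted p = 0.1684).

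Gland cells were salivary cells of the combo library, in which Bpifa2, a salivary secretory protein, stood at 172400 CPM. They held 30 HOX UMIs, a summed level of 53.5 CPM against 259 CPM in the fibroblasts of that library. Hoxa5 had 10 UMIs, Hoxa3 6, Hoxc6 4 and Hoxc5 3. Hoxb2 and Hoxd8, at 0 UMIs, were at least 5.722-fold and 5.464-fold lower than in fibroblasts of all 4 libraries (3 UMIs allowed). Hoxc8 had 1 UMI (CPM ratio to the same fibroblasts 0.0748, 95% counting interval 0.00189 to 0.418). In fibroblasts of the combo library Hoxb2, Hoxd8 and Hoxc8 stood at 36.3, 30.4 and 27.7 CPM. With 1 library there is no spread between gland samples, and edgeR takes it from the other classes. On that assumption these 3 members were called lower (background 7.59%) and 0 higher (background 7.9%). DESeq2 also called 0 higher, and 9 members had an unadjusted p under 0.05 in edgeR in either direction. Under a stricter gate or with cells thinned to 1000 UMIs none of these was called.

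Pericytes, the contractile cells on capillaries, were too few for a statement by test. The gate left 3 to 18 cells a library, and no member was called in either direction by edgeR (background 0.984% higher and 3.64% lower), nor had any an unadjusted p under 0.05; DESeq2 called 0 as well. A gate by number of markers, added after this had been seen, gave 49 cells with 43 HOX UMIs. The pericyte marker Rgs5 stood at 8632 CPM in these cells and Dcn at 26.1 CPM. Pecam1, high in endothelial cells, stood at 313 CPM (36 UMIs), and the part of endothelial RNA in the HOX counts of these cells was not tested. There Hoxb2 had 1, 3, 3 and 3 UMIs (87.0 CPM, 95% Poisson interval 41.7 to 160), Hoxc6 had 6 UMIs, Hoxc8 had 5 and Hoxa5 had 4.

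The RNAs made from within the clusters and the partners of HOX proteins were read from lists chosen with earlier results of these data known. Over all genes tested, 26.0% were higher and 30.0% lower in cancer cells than in fibroblasts, and 19.3% higher and 22.6% lower in endothelial cells. Of 11 listed HOX antisense and intergenic RNAs, 10 are in the files and 3 were tested. Hotairm1, an RNA of cluster A, was higher in cancer cells (0.89, edgeR quasi-likelihood adjusted p = 0.0006316), with 17.9, 16.9, 10.6 and 17.6 CPM against 9.11, 8.16, 5.10 and 6.82 CPM in fibroblasts. Hoxd3os1, on the opposite strand in cluster D, had 1 UMI in cancer cells and 175 in fibroblasts (adjusted p = 1.298e-08), and Hoxaas3 was also lower (-1.45). Hoxd3os1 overlaps Hoxd8 and Hoxd4, and the counting strand is not given in the sources used here, so reads of such pairs may not be told apart. In endothelial cells none of the 3 was called against fibroblasts.

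Of 8 tested HOX cofactors (9 listed), 4 were higher (26.0% over all genes) and 2 lower (30.0%) in cancer cells than in fibroblasts, with a median log2 difference of 0.48. Among those higher were Meis2 (1.16), Meis1 (0.94) and Pbx3 (0.70), with edgeR quasi-likelihood adjusted p between 0.0002326 and 0.003823. In endothelial cells 1 was higher (19.3% over all genes), Pbx3 (0.62), and 5 were lower (22.6%), among them Meis1 (-3.85) and Meis2 (-3.08). Meis1 had 6 UMIs among the 4260001 of endothelial cells and 2813 among the 61327506 of cancer cells.

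Among 15 tested regulators of HOX chromatin (18 listed), 9 were higher (26.0% over all genes) and 2 lower (30.0%) in cancer cells than in fibroblasts (median 0.63), including the Polycomb member Bmi1 (1.19) and Psip1 (0.98), while the MLL methyltransferase Kmt2a did not pass (0.21, edgeR quasi-likelihood adjusted p = 0.3091). Against fibroblasts, 2 were higher (19.3% over all genes) and 0 lower (22.6%) in endothelial cells.

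Of the other genes of body position, 0 of 11 tested (20 listed) were higher in cancer cells than in fibroblasts (26.0% over all genes) and 10 lower (30.0%), with a median of -5.42. En1, an engrailed homeobox factor, was lower by 0.53, at 43.1, 43.6, 45.2 and 42.2 CPM in cancer cells against 53.0, 55.0, 46.4 and 62.7 CPM in fibroblasts. Tbx15, a T-box factor known for coat pattern, was lower by 2.62, and Meox2, a mesoderm homeobox gene, had 4 UMIs in cancer cells (-7.75). In endothelial cells Meox1 (2.25) and Meox2 (2.35) were higher than in fibroblasts (19.3% over all genes) and 7 of 11 were lower (22.6%). Of 7 tested foregut and pancreas genes (13 listed), 5 were higher in cancer cells than in fibroblasts (26.0% over all genes) and 1 lower (30.0%), with Pdx1 (3.06) among the higher, while Gata6 did not pass (-0.02, edgeR quasi-likelihood adjusted p = 0.9507). Against endothelial cells, 6 of the 7 foregut and pancreas genes were higher in cancer cells (27.7% over all genes) and 1 lower (27.9%), with a median of 4.54. Of the 15 regulators of HOX chromatin 7 were higher and 2 lower there, and of the 8 cofactors 4 and 1. Of the 11 other genes of body position 3 were higher and 3 lower, and of the 3 antisense and intergenic RNAs 0 and 2.

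With 1 library a treatment, treated and control libraries were compared without a test, by the ratio of CPM with a 95% interval that covers counting error only, for members with at least 10 UMIs in 1 of the 2 libraries. The 3 ratios share the control library. A member counts as past the fold at a ratio of at least 2 or at most 0.5.

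In cancer cells few members were past the fold. Under anti-PD-1 0 of 18 members were higher past 2-fold (background 5.22%) and 0 lower (background 4.33%). Under anti-LIF 2 of 18 were higher (background 9.49%) and 0 lower (background 6.58%), Hoxa7 at a log2 ratio of 1.14 (interval 0.75 to 1.53, 94 against 137 UMIs) and Hoxc5 with 8 against 10 UMIs. In the combo library 3 were higher (background 7.62%) and 2 lower (background 4.57%), each with 8 or fewer UMIs in the treated library and an interval that includes 0: Hoxb3 (1.16), Hoxb4 (1.43), Hoxc5 (1.07), Hoxa4 (-1.15) and Hoxc10 (-1.89). Median log2 ratios of members were 0.23, 0.10 and 0.11 for anti-PD-1, anti-LIF and combo, against 0.16, 0.21 and 0.20 over all genes.

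All gated fibroblasts gave larger ratios. Higher past 2-fold were 8 of 24 members under anti-PD-1 (background 7.2%), 12 of 27 under anti-LIF (background 12.8%) and 13 of 27 in the combo library (background 12.3%). Lower were 0, 3 and 5 (backgrounds 4.5%, 9.75% and 9.83%). The median log2 ratios were 0.68, 0.54 and 0.86 against 0.06, 0.03 and 0.04 over all genes. Hoxa5 was lower under anti-LIF (-2.38, interval -2.70 to -2.08) and in the combo library (-2.34, -2.65 to -2.04), and Hoxc9 at -2.34 and -1.10. Hoxd8 was higher at 1.52 (1.22 to 1.84) and 1.02, Hoxb2 at 1.43 and 1.32 and Hoxb4 at 1.67 and 1.64.

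These are the libraries in which the fibroblast gate held different amounts of cancer-like cells. In the anti-LIF and combo libraries Sox9 stood at 80.8 and 90.1 CPM against 889 CPM in control, and Xist at 143 and 171 CPM against 57.3 CPM; the part of such cells in the ratios was not tested. Among the fibroblasts with a Xist UMI, 1 of 19, 3 of 22 and 3 of 25 members were higher (backgrounds 6.64%, 7.03% and 6.64%), and 3, 5 and 2 lower (backgrounds 5.44%, 2.9% and 3.45%). The median log2 ratios of members were 0.08, 0.02 and 0.03 against 0.03, 0.04 and 0.07 over all genes.

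Hoxa5 in that set had a log2 ratio of -1.01 (interval -1.62 to -0.39) under anti-LIF and was within 2-fold in the other libraries. In the combo library, however, its level was close to that of the anti-LIF library and only just within 2-fold of control. Hoxd8 in the combo library turned to -0.13, Hoxc5 to -0.29 under anti-LIF and in the combo library, and Hoxa3 in the combo library to 0.67. Hoxc8 was lower in all 3 treated libraries, at 23.5, 19.5 and 22.8 CPM (44, 89 and 128 UMIs) against 59.1 CPM (113 UMIs) in control. Its log2 ratios were -1.33 (interval -1.87 to -0.81), -1.60 (-2.02 to -1.18) and -1.37 (-1.75 to -0.996), whereas over all gated fibroblasts Hoxc8 stood at 30.2 CPM in control. Hoxd10 was lower in the 3 as well, at 1.61, 2.19 and 0 CPM (3, 10 and 0 UMIs) against 5.76 CPM (11 UMIs). With 267 control cells with a Xist UMI and 1 library a treatment, a difference between treatments and a difference between pools of mice cannot be told apart.

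**Figure D5:**
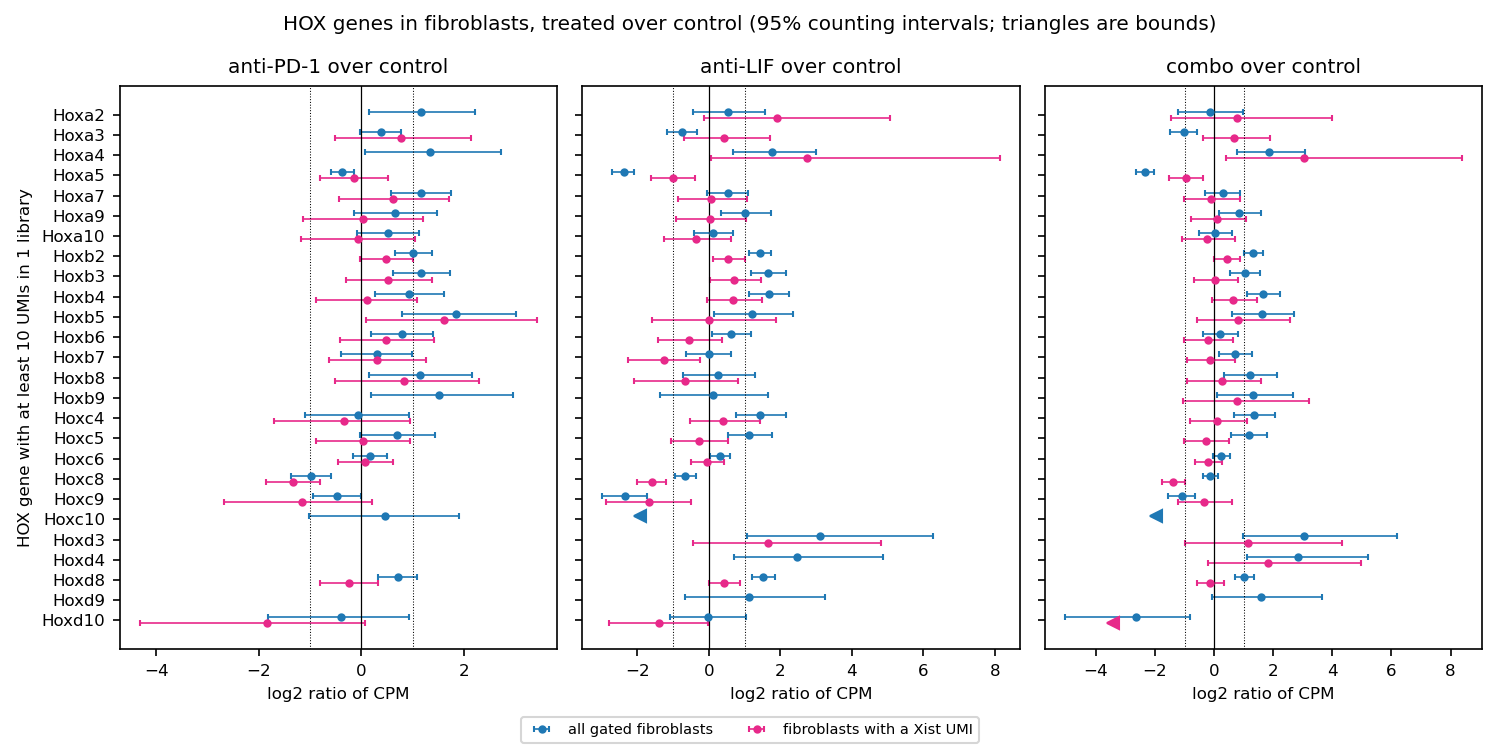
Log2 ratio of CPM, treated over control, for HOX genes in fibroblasts with at least 10 UMIs in 1 library, with 95% counting intervals, for all gated fibroblasts (blue) and those with a Xist UMI (pink); dotted lines mark 2-fold and triangles are bounds. The Hoxa5 point moves from -2.38 to -1.01 under anti-LIF, and Hoxc8 lies below -1 in all 3 panels for the cells with a Xist UMI.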

How the data were processed

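Tumours were profiled as 4 libraries of a SeekOne MM 3′ single-cell kit, 1 per treatment, each from 3 combined samples. The deposited files hold raw UMI counts per gene and cell barcode, per the file contents; the submitters' processing notes name mm10 and Seurat 4.0.3, and the aligner, counter and counting strand are not given in the sources used here. Libraries held 57720774 to 111164731 UMIs.

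Cells with under 200 genes or over 20% mitochondrial UMIs were left out, and the others were gated by marker UMIs as stated with the results. Doublets were not called; cells with markers of a second class were left out by the gate. Counts were summed per class and library (at least 10 cells) and fitted with edgeR 4.0.16 (R 4.3.3): TMM, filterByExpr, glmQLFit with class and library as terms over 6 classes, 6 contrasts, Benjamini-Hochberg adjustment over 13005 genes, threshold 0.05. On simulated data (11283 genes, cancer cells against fibroblasts) the fit called 100.0% of genes changed by a log2 of 2 or -2, 76.0% at 1, 64.0% at -1 and 0.0361% of unchanged genes. The changed genes were drawn from those with at least 200 UMIs in fibroblasts, with 1 fixed dispersion and no difference between libraries. These shares therefore do not cover members with fewer UMIs, such as Hoxb9, Hoxd4, Hoxd9 and Hoxd10. Gene IDs matched GENCODE M21 for 32158 of 32285. Overlaps between gene models touch 11 members on the same strand and 14 on the opposite one.

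Intervals are exact Poisson, binomial or conditional intervals at 95% and cover counting error only. The SE of a log2 difference was derived as its size divided by the square root of the quasi-likelihood F statistic. A fold against a class with 0 UMIs uses 3 UMIs over the class as its floor. The upper 95% Poisson limit at 0 UMIs lies somewhat above this floor. Alternatives were DESeq2 1.42.0, no filter on low counts, other gates, at most 10% mitochondrial UMIs, thinning to 1000 UMIs per cell, only the classes compared, no library term, the mean over cells of the CPM and leaving out each library; the fibroblasts with a Xist UMI and the gate by number of markers were added after seeing the data. Members and lists were chosen with earlier results of these data known. Named were members with at least 50 UMIs over the 6 classes, in lists the 4 members with most UMIs and those a result turns on. The values of some members and listed genes and some sequences are not reported here, in text or figures. Treatment has 1 library a group and was not tested.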

Additional observations from a re-analysis of the deposited data

Results flagged for a closer look

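Hoxa4 lay past 2-fold in opposite directions in cancer cells and fibroblasts of the combo library. Its log2 ratio to control was -1.15 in cancer cells (2 against 31 UMIs, 95% counting interval -4.26 to 0.83) and 1.86 in fibroblasts (38 against 9 UMIs, 0.79 to 3.09). The difference between these ratios was not tested, and with 2 UMIs the cancer cell value is near the limit of the depth.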

How the results depend on the processing

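The member counts below are of calls between classes or of ratios past 2-fold. Most stand without the share over all genes under the same setting, so they show only how calls and ratios moved. Between classes, 24 members were tested in the main fit and 34 without the filter on low counts. The number was 25 under the stricter gate, 26 by number of markers, 23 with the marker UMI multiple and 16 after thinning. It was 16 to 25 with only the classes compared or 1 library left out. A count can therefore change because members were not tested. For cancer cells against fibroblasts, 4 members were higher without the filter on low counts and 4 with the gate by marker UMI multiple, and 11 lower with cells thinned to 1000 UMIs, where 16 members were tested; leaving out 1 library gave 2 to 3 higher and 17 to 19 lower. For endothelial cells against fibroblasts, 4 were higher with DESeq2 and 3 after thinning, and 4 to 6 when 1 library was left out. In muscle cells, 3 were higher and 2 lower with DESeq2, 2 higher without the filter, with the marker UMI multiple or without the library term, 0 with only the classes compared or by number of markers, and 0 higher and 2 lower after thinning; leaving out 1 library gave 0 to 1 higher and 1 to 5 lower. In gland cells, 0 were lower under the stricter gate, 6 with the marker UMI multiple and 0 after thinning. Against endothelial cells, 7 were lower in cancer cells after thinning, where 6 members called in all reads were not tested. In cancer cells against control, anti-PD-1 had 3 higher by the mean over cells; anti-LIF had 1 lower with the marker UMI multiple, 2 lower at 10% mitochondrial UMIs, 1 higher after thinning, and 4 higher and 2 lower by the mean over cells; combo had 1 higher and 0 lower under the stricter gate and the marker UMI multiple, 0 and 0 at 10% mitochondrial UMIs, 0 and 1 after thinning, 1 lower with no Xist condition and 0 lower by number of markers. In fibroblasts, anti-PD-1 had 1 lower under the stricter gate and by number of markers, 3 higher and 1 lower at 10% mitochondrial UMIs, 3 higher after thinning, 4 by the mean over cells, and 1 higher and 3 lower among cells with a Xist UMI; anti-LIF had 4 higher at 10% mitochondrial UMIs, 7 after thinning, and 3 higher and 5 lower with a Xist UMI; combo had 4 higher and 3 lower at 10% mitochondrial UMIs, 6 and 2 after thinning, 8 and 2 by the mean over cells, and 3 and 2 with a Xist UMI. Log2 ratios that turned were Hoxa4 in combo cancer cells (0.0377 with the marker UMI multiple, 0.27 by number of markers), Hoxd9 in anti-LIF fibroblasts (-0.32 by the mean over cells), Hoxa3 in combo fibroblasts (0.17 after thinning, 0.67 with a Xist UMI), and with a Xist UMI Hoxc5 (-0.29 under anti-LIF and -0.29 in combo) and Hoxd8 in combo (-0.13). The causes were not tested. Of the values of single members between classes, 1705 kept their call, 83 lost it and 34 gained one, with no change of direction in a called value; against control 641 stayed within the counting interval, 130 moved out of it and 8 turned. Not run, for want of cells or residual degrees of freedom, were only the classes compared for gland cells, gland cells without the combo library, and pericytes at 10% mitochondrial UMIs and after thinning. The library term pairs the classes of each library; without it 2 members were higher and 18 lower in cancer cells than in fibroblasts, and 6 and 8 in endothelial cells. The labels give no replicate numbers that would pair libraries across treatments. Depth limits members under 10 UMIs, above all in muscle and gland cells and pericytes.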
